A study of Mus musculus with 9 samples.

Results

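The genes described here are the receptor chains of the interferons, the Janus kinases bound to them and interferon beta itself, followed in HC11 cells with and without editing of *Vangl2*. They are the type I receptor chains *Ifnar1* and *Ifnar2*, the type II chains *Ifngr1* and *Ifngr2*, the type III chains *Ifnlr1* and *Il10rb*, the kinases *Jak1*, *Jak2* and *Tyk2*, and the ligand *Ifnb1*. These are 10 of the 55228 genes in the count table, and 9 of them passed the expression filter, since *Ifnb1* was too low. The question was whether the level of the ligand or of its receptors goes with the raised interferon response genes of the edited lines.

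An interferon brings together a pair of receptor chains, and each chain carries a Janus kinase on its cytoplasmic tail. IFNAR1 is bound by TYK2 and IFNAR2 by JAK1, IFNGR1 by JAK1 and IFNGR2 by JAK2, IFNLR1 by JAK1 and IL10RB by TYK2. The kinases then phosphorylate STAT proteins. STAT2 and IRF9 are subunits of ISGF3, the factor of the type I and III response, while a STAT dimer without them drives the gamma-type response. Type III interferon acts mainly on epithelial cells, because *Ifnlr1* is expressed in few other cell types.

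HC11 is an epithelial line from the mammary gland of a BALB/c mouse. Polyadenylated RNA was sequenced from undifferentiated cells grown without further treatment in medium with serum, insulin and epidermal growth factor. The *WT* group was the parental line, and *KD1* and *KD2* were lines edited at *Vangl2* with CRISPR/Cas9 and a repair template carrying stop codons. Each *KD* line was made with its own guide and grown from a single colony, so clone and edit cannot be told apart, and an unedited clone was not analysed here. There were 3 cultures per line, and no label says whether they were grown separately, so the p-values measure the spread between these cultures, which may be technical.

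*Vangl2*, the targeted gene, was read first as a check of the labels. Its level in CPM (counts after scaling each library to the same size) was 3.38, 3.96 and 4.20 in *WT*, against 2.77, 1.89 and 2.78 in *KD1* and 3.64, 3.93 and 4.43 in *KD2*. *KD1* was lower, with a log2 fold change of -0.63 (SE 0.171, adjusted p = 0.0058, quasi-likelihood test of edgeR, adjusted by Benjamini-Hochberg). For *KD2* the value was 0.05 (95% interval -0.30 to 0.40, adjusted p = 0.81, edgeR), so the RNA level gave no check of the *KD2* label. By immunoblot, the paper reports VANGL2 protein as nearly absent from *KD1* and strongly reduced in *KD2*. Depth was 20030410 to 25505223 counts in *WT*, 25514438 to 27896032 in *KD1* and 19231428 to 28360592 in *KD2*. The 3rd *KD2* culture and the 1st *WT* culture stood apart from their groups, at 18.6 or more and 10.6 or more in chi-square per degree of freedom, against 1.82 and 3.40 for the remaining pair of each group. The 6 mammary epithelial markers, among them *Epcam* and *Krt8*, were present in every line, with summed levels of 4818 to 5389 CPM in *WT*, 5464 to 5607 in *KD1* and 2873 to 3564 in *KD2*. Of 10 leukocyte markers, 8 were at 3 counts or fewer in every *WT* culture and 7 in each *KD* line, with *Adgre1* and *Nkg7* at 0 throughout. The summed leukocyte level was 3.52 to 6.35 CPM in *WT*, 7.30 to 9.0 in *KD1* and 6.18 to 7.19 in *KD2*, most of it *Cd68* and *Itgax*. The 8 fibroblast and endothelial markers summed to 18.4 to 24.2 CPM in *WT*, 13.1 to 14.8 in *KD1* and 27.5 to 29.0 in *KD2*. The part of these shifts in the results was not tested.

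Promoters from RefSeq (GRCm38.p6) are shown for *Ifnb1*, the near-silent ligand, and for 3 genes of the receptor cluster on chromosome 16, which differed in how they moved. RefSeq windows of 300 bases, from 250 bases before to 50 after the start site, were found for 9 members, and *Il10rb* was not matched. Each was searched on both strands for GAAANNGAA, the core of the interferon-stimulated response element, and TTCNNNGAA, the STAT dimer element, which reads the same on both strands. The windows lie at chr4:88522745-88523044 on the minus strand for *Ifnb1*, and on the plus strand at chr16:91372533-91372832 for *Ifnar2*, chr16:91484965-91485264 for *Ifnar1* and chr16:91546809-91547108 for *Ifngr2*. Capitals mark the STAT element.
Ifnb1: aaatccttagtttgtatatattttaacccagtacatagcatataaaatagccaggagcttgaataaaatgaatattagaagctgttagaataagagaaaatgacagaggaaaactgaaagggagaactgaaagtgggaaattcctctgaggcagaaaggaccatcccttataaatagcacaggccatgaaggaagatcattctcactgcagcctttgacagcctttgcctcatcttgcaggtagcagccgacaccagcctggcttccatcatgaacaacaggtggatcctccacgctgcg
Ifnar2: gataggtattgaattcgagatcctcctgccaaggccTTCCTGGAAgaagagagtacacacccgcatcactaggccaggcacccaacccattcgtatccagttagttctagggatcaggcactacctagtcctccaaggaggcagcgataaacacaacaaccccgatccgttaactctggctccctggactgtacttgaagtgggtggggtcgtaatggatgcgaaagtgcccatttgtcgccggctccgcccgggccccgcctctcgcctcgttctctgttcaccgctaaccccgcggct
Ifnar1: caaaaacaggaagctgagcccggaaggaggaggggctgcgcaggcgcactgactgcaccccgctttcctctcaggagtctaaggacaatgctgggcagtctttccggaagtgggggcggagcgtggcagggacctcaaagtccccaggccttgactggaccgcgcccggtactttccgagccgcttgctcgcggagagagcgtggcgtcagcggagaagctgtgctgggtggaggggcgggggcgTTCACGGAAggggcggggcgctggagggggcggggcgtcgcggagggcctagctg
Ifngr2: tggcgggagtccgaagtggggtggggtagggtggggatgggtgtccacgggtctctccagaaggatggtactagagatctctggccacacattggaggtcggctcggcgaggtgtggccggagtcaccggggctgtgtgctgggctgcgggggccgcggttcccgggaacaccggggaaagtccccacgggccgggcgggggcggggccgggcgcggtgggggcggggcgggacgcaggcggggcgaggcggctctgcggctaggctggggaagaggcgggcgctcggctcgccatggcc

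The STAT element began at base -214 from the start site in *Ifnar2* and at base -5 in *Ifnar1*, and was not in the other 7 windows. It occurs in 2726 of all 32851 promoters (8.3%). The response element core was in 0 of the 9 windows and in 2812 of all promoters (8.56%). These are matches of letters and say nothing of binding.

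The ligand was at or near 0. *Ifnb1* (ENSMUSG00000048806), the gene of interferon beta, is a single exon of 750 bases on the minus strand of chromosome 4, from 88522025 to 88522774. It had 0 counts in each *WT* culture, 1, 0 and 0 in *KD1*, and 2, 1 and 1 in *KD2*, so each *KD2* culture was above *WT* by 1 or 2 counts. No culture passed the floor of 3 counts, which stands for 0.0999 to 0.154 CPM at these depths, so a difference was not detectable at this depth, and no fold change is given. With the filter taken away the gene could be tested, and the adjusted p was 0.58 in *KD1* and 0.17 in *KD2* against *WT* (edgeR, no filter). Interferon protein in the medium was not measured.

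The other interferons were as scarce. Of 20 further interferon genes, 13 had no count in any culture, 7 had at least 1, and 2 passed 3 counts in some culture. These were *Ifnk*, a type I interferon of epithelia, with 2 to 9 counts across the 9 cultures, and *Ifng*, the type II interferon made by lymphocytes. *Ifng* had 0, 0 and 1 counts in *WT*, 0, 0 and 3 in *KD1* and 1, 7 and 1 in *KD2*, so the groups overlapped and the highest value was a single culture. Without the filter its adjusted p in *KD2* was 0.094 (edgeR, unadjusted p = 0.036). The counts of the *Ifna* genes summed to between 0 and 2 per culture, and *Ifnl2* and *Ifnl3*, the type III ligands, to at most 1. None of the 20 passed the filter of the main test.

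The type I chains moved apart from each other. *Ifnar2* (ENSMUSG00000022971) encodes the chain with the higher affinity for the ligand. Its level was 17.7, 15.5 and 15.4 CPM in *WT*, 32.2, 31.7 and 31.7 in *KD1*, and 24.5, 25.6 and 27.7 in *KD2*. All cultures of both *KD* lines were above all *WT* cultures, and the *KD* lines did not overlap. Against *WT*, the log2 fold change was 0.98 in *KD1* (SE 0.0765, adjusted p = 9.2e-08, edgeR) and 0.68 in *KD2* (SE 0.0775, adjusted p = 3.4e-06, edgeR). *Ifnar1* (ENSMUSG00000022967), the second chain of the receptor, varied less. Its level was 65.0, 65.3 and 67.9 CPM in *WT*, 77.2, 77.1 and 75.6 in *KD1*, and 59.7, 61.7 and 56.4 in *KD2*. Every *KD1* culture was above *WT*, and every *KD2* culture was below it. The log2 fold change was 0.21 in *KD1* (SE 0.0565, adjusted p = 0.0051, edgeR) and -0.16 in *KD2* (SE 0.0570, adjusted p = 0.027, edgeR). The fall in *KD2* did not hold when scaled by library size alone (-0.04, adjusted p = 0.50, edgeR) or without the 2nd or 3rd *WT* culture or the 1st or 3rd *KD2* culture, with values of -0.16 to -0.09.

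The type II chains went in opposite directions. *Ifngr2* (ENSMUSG00000022965) encodes the signalling chain that brings JAK2 to the receptor. Its level was 37.3, 41.3 and 42.6 CPM in *WT*, 95.3, 99.0 and 93.0 in *KD1*, and 47.5, 47.2 and 45.0 in *KD2*. *KD1* lay far above both other lines, and *KD2* lay just above *WT* without overlap. The rise in *KD1* was 1.24 on the log2 scale (SE 0.0635, adjusted p = 9.2e-10, edgeR), and that in *KD2* was 0.20 (SE 0.0645, adjusted p = 0.012, edgeR). The *KD2* rise missed the threshold without the 1st *WT* culture (0.15, adjusted p = 0.059, edgeR). *Ifngr1* (ENSMUSG00000020009) encodes the chain that binds interferon gamma. It was at 49.0, 49.8 and 53.8 CPM in *WT*, 30.0, 28.8 and 30.4 in *KD1*, and 38.9, 40.5 and 39.8 in *KD2*. Every *KD* culture was below every *WT* culture, with *KD1* lowest. The log2 fold change was -0.77 in *KD1* (SE 0.0614, adjusted p = 1.1e-07, edgeR) and -0.35 in *KD2* (SE 0.0605, adjusted p = 0.00014, edgeR).

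Of the type III chains, the shared chain rose and the specific chain did not pass the test. *Il10rb* (ENSMUSG00000022969) also serves the receptors of interleukin 10 and interleukin 22. Its level was 8.40, 7.64 and 8.69 CPM in *WT*, 17.6, 16.9 and 18.2 in *KD1*, and 13.1, 12.5 and 11.3 in *KD2*. The 3 lines did not overlap, and *KD1* was highest. The log2 fold change was 1.09 in *KD1* (SE 0.0896, adjusted p = 1.5e-07, edgeR) and 0.59 in *KD2* (SE 0.0922, adjusted p = 7.1e-05, edgeR). *Ifnlr1* (ENSMUSG00000062157), the chain that only type III interferons use, was at 10.6, 12.5 and 11.9 CPM in *WT*, 12.8, 11.4 and 12 in *KD1*, and 11.6, 9.69 and 10.2 in *KD2*. The lines overlapped. The log2 fold change was 0.05 in *KD1* (95% interval -0.16 to 0.26, adjusted p = 0.69, edgeR) and -0.16 in *KD2* (-0.37 to 0.06, adjusted p = 0.18, edgeR), so a change as large as that of *Il10rb* lay outside both intervals.

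The 3 kinases rose in both lines, each to its own extent. *Jak2* (ENSMUSG00000024789) serves the interferon gamma receptor and the receptors of prolactin and growth hormone. It was at 40.4, 37.3 and 36.8 CPM in *WT*, 72.5, 75.0 and 72.4 in *KD1*, and 53.3, 57.4 and 45.5 in *KD2*, with no overlap between lines. It rose by 0.94 in *KD1* (SE 0.0793, adjusted p = 2e-07, edgeR) and by 0.45 in *KD2* (SE 0.0800, adjusted p = 2e-04, edgeR) on the log2 scale. *Tyk2* (ENSMUSG00000032175), the kinase of the type I and III receptors, had the opposite order of lines. It was at 31.6, 34.8 and 33.2 CPM in *WT*, 40.5, 38.4 and 39.4 in *KD1*, and 52.8, 53.0 and 60.9 in *KD2*. The lines did not overlap, and the 3rd *KD2* culture was highest. The log2 fold change was 0.25 in *KD1* (SE 0.0714, adjusted p = 0.0092, edgeR) and 0.74 in *KD2* (SE 0.0707, adjusted p = 5.8e-07, edgeR). *Jak1* (ENSMUSG00000028530), used by all 3 receptor types, was at 125, 133 and 128 CPM in *WT*, 154, 159 and 153 in *KD1*, and 179, 176 and 152 in *KD2*. Both *KD* lines were above *WT*, and they overlapped with each other. The rise was 0.27 in *KD1* (SE 0.0664, adjusted p = 0.0033, edgeR) and 0.39 in *KD2* (SE 0.0664, adjusted p = 0.00014, edgeR) on the log2 scale.

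**Figure D1:**
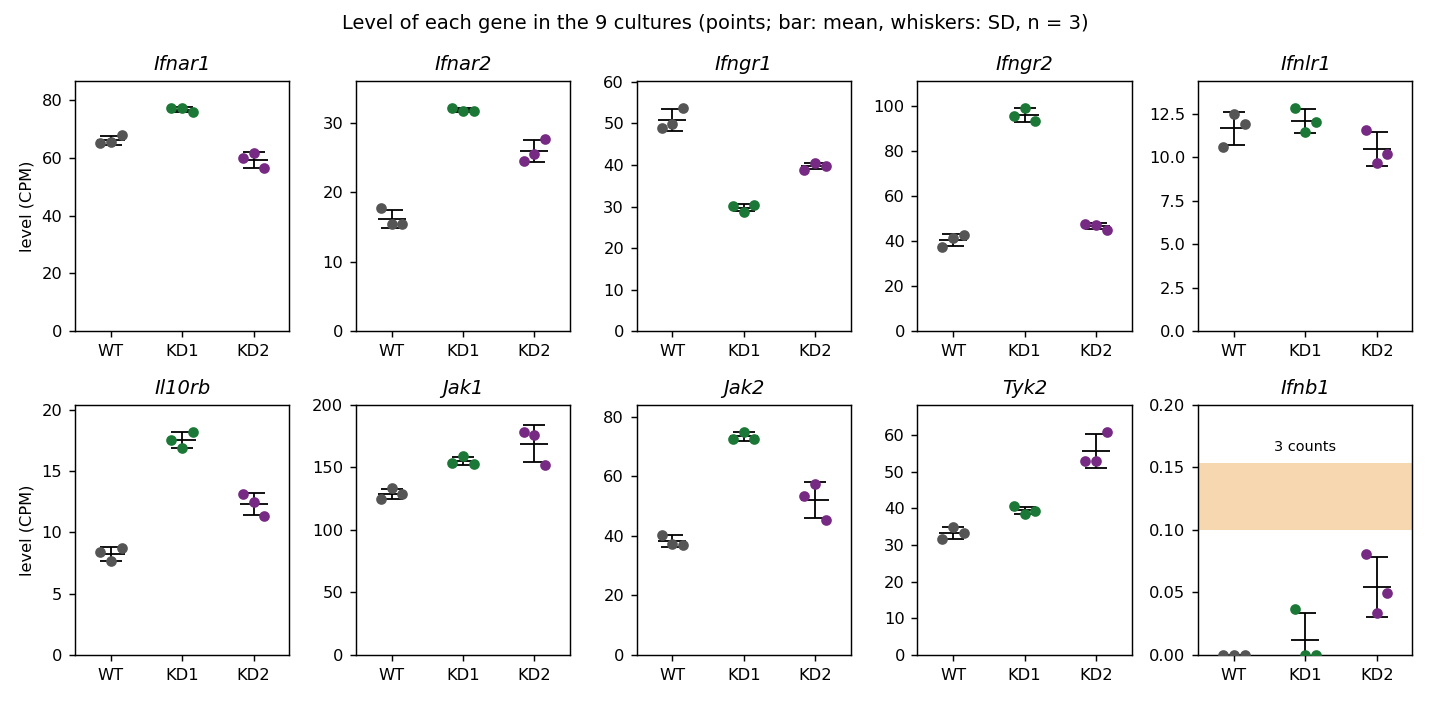
Level in CPM on a linear axis from 0 for the 10 genes in *WT*, *KD1* and *KD2*; points are the 3 cultures of a line, with the mean and SD as bar and whiskers. *Ifngr2* in *KD1* sits at 93.0 to 99.0 CPM, above every other culture, while every *Ifnb1* point lies below the shaded band that marks 3 counts at the depths of the cultures.

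Counted together, 8 of the 9 tested members passed an adjusted p of 0.05 in *KD1*, 7 higher and 1 lower, and 8 of 9 passed in *KD2*, 6 higher and 2 lower. Such shares have to be read against all 15253 genes tested. In *KD1*, 26.9% of all genes were higher and 30% lower at that threshold, and in *KD2* 34% were higher and 33.3% lower. At the stricter call, which also asks for an absolute log2 fold change above 1, 2 members were called in *KD1*, *Ifngr2* and *Il10rb*, both higher, where 16.8% of all genes were called. In *KD2*, 0 of 9 were called, against 21.2% of all genes. DESeq2 also left 8 members past the adjusted p of 0.05 in each line. The median log2 fold change of the members was 0.27 in *KD1* and 0.39 in *KD2*, beside -0.03 and 0.01 for all genes tested. In size, the *KD1* change of *Ifngr2* was larger than that of 86% of all genes and that of *Il10rb* than 83.7%, with *Ifnar2* at 81.7%, *Jak2* at 80.9% and *Ifngr1* at 76%. In *KD2* the largest member change, that of *Tyk2*, exceeded 68.3% of all genes. *Ifnar1*, *Jak1* and *Tyk2* in *KD1* lay at 33.2% to 40.2%.

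The *KD* lines also differed from each other. In *KD2* against *KD1*, 7 of 9 members passed, 2 higher and 5 lower, beside 34.8% of all genes higher and 33% lower. *Ifngr2* differed most, at -1.04 (SE 0.0626, adjusted p = 3.7e-09, edgeR), and it was the single member called, beside 23.3% of all genes. *Ifnar1*, *Ifnar2*, *Il10rb* and *Jak2* were lower in *KD2* than in *KD1*, by -0.37, -0.30, -0.51 and -0.49 on the log2 scale (adjusted p from 4.9e-05 to 0.0023, edgeR). The *Ifnar2* difference missed the threshold when scaled by library size alone (-0.17, adjusted p = 0.051, edgeR). *Tyk2* was higher in *KD2*, at 0.49 (adjusted p = 2.2e-05, edgeR), as was *Ifngr1*, at 0.42 (adjusted p = 3.4e-05, edgeR). *Jak1* at 0.12 and *Ifnlr1* at -0.21 did not pass (adjusted p = 0.12 and 0.075, edgeR). In this comparison the other genes tested within 2 Mb had a median of -0.30 around the receptor cluster on chromosome 16. The medians were 0.34 around *Tyk2*, 0.05 around *Jak2* and -0.12 around *Ifngr1*. The part of the surroundings in these differences was not tested. The comparisons share cultures, so they are not separate evidence.

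**Figure D2:**
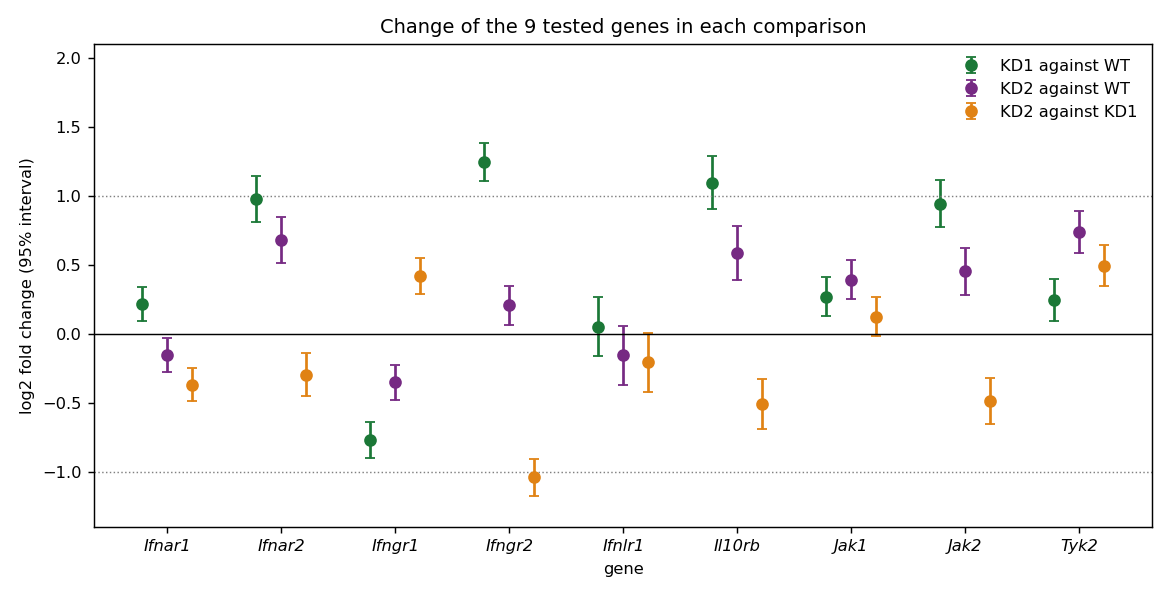
Log2 fold change with 95% interval for the 9 tested genes in each of the 3 comparisons; dotted lines mark a log2 fold change of 1 and of -1. *Ifngr2* has the highest point in *KD1* against *WT* (1.24) and the lowest in *KD2* against *KD1* (-1.04), while *Ifnlr1* crosses 0 in each comparison.

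Levels were compared between genes as CPM per kilobase of exon. In *WT* the ligand-binding chain of the type II receptor and the shared kinase led, with *Ifngr1* at 17.9 ± 0.902 and *Jak1* at 17.8 ± 0.597 (SD, n = 3), which overlapped. *Ifnar1* (11.1) and *Ifngr2* (10.7) followed and overlapped too, then *Jak2* (7.59), then *Ifnar2* (4.86) and *Tyk2* (4.84), which overlapped, then *Ifnlr1* (2.79) and *Il10rb* (2.16). With the length of the longest transcript in place of all exons, the order within the pairs *Ifngr1* and *Jak1*, *Ifnar2* and *Tyk2*, and *Ifnlr1* and *Il10rb* was exchanged. In *KD1* *Ifngr2* came first, at 25.4 ± 0.810, before *Jak1* at 21.5 and *Jak2* at 14.6, and *Ifngr1* had moved to the 5th place at 10.4. With the longest transcript *Ifngr2* came 2nd in *KD1*, after *Jak1*, and *Ifnar1* came 3rd, before *Jak2*. On the scale per kilobase of exon no neighbours overlapped in *KD1*. In *KD2* *Jak1* led at 23.4 ± 2.06, before *Ifngr1* at 14.0 and *Ifngr2* at 12.4. Below them *Jak2* (10.3) overlapped *Ifnar1* (9.98), and *Tyk2* (8.10) overlapped *Ifnar2* (7.79). With the longest transcript *Ifnar1* came 3rd in *KD2*, *Ifngr2* 4th, *Tyk2* 5th and *Jak2* 6th. *Ifnlr1* was lowest of the 9 in both *KD* lines, at 2.89 and 2.51, below *Il10rb* at 4.61 and 3.23.

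**Figure D3:**
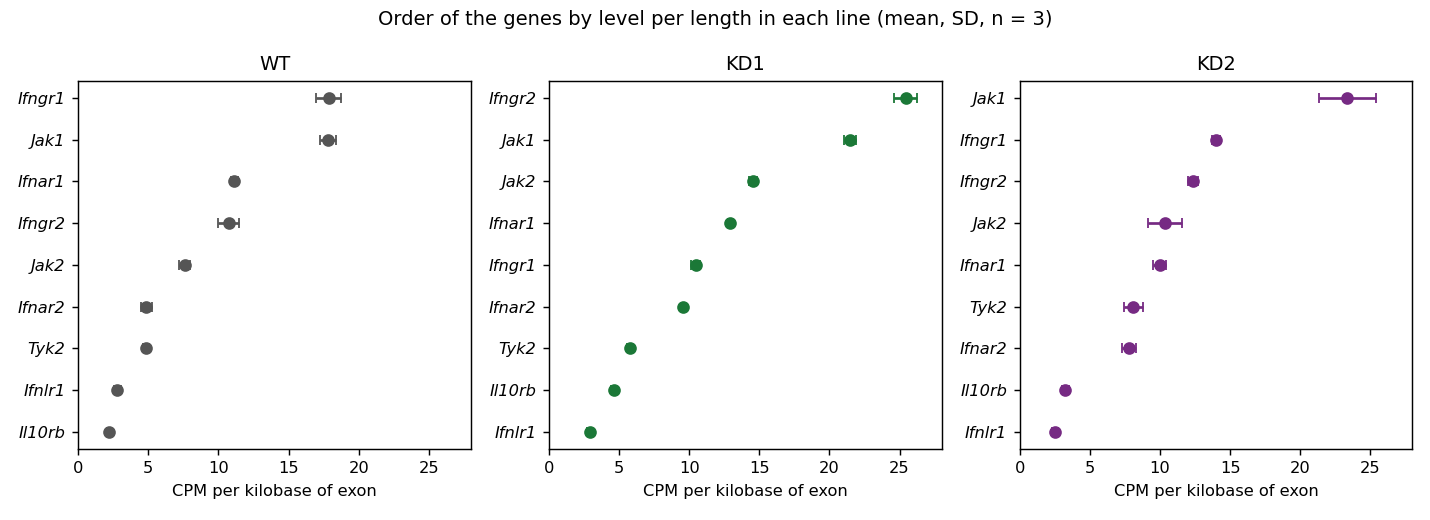
Mean level per kilobase of exon (CPM per kilobase, linear axis, SD over 3 cultures) of the 9 tested genes, ordered from high to low in *WT*, *KD1* and *KD2*. *Ifngr2* moves from the 4th place in *WT* (10.7) to the 1st in *KD1* (25.4) and the 3rd in *KD2* (12.4). With the length of the longest transcript, not drawn, its places are the 4th, 2nd and 4th.

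Since a receptor works as a pair, the ratio of its chains was taken in each culture, on the same scale per kilobase. *Ifngr2* to *Ifngr1* was 0.576, 0.627 and 0.599 in *WT*, 2.40, 2.60 and 2.31 in *KD1*, and 0.922, 0.880 and 0.854 in *KD2*. By geometric means, the ratio in *KD1* was 4.05 times that in *WT*, and the ratio in *KD2* 1.47 times. *Ifnar2* to *Ifnar1* was 0.438 ± 0.0429 in *WT*, 0.741 ± 0.00679 in *KD1* and 0.782 ± 0.0817 in *KD2* (SD, n = 3), with both *KD* lines above *WT* and overlapping each other. *Il10rb* to *Ifnlr1* was 0.781 ± 0.10 in *WT*, 1.60 ± 0.0848 in *KD1* and 1.29 ± 0.106 in *KD2*, without overlap. For the kinases, *Jak2* to *Jak1* was 0.426 in *WT*, 0.679 in *KD1* and 0.442 in *KD2*, the last overlapping *WT*. *Tyk2* to *Jak1* was 0.271, 0.267 and 0.350, and in *KD2* it ranged from 0.311 to 0.423. Of the 15 comparisons of ratios, 12 had no overlap, with an exact two-sided permutation p of 0.10 (adjusted p = 0.125 over the 15), which is the smallest that 3 against 3 can give. The comparisons share cultures, and the share without overlap for ratios of other genes was not computed. The count is therefore not read as a trait of these pairs.

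The chains *Ifnar2*, *Il10rb*, *Ifnar1* and *Ifngr2* lie in that order on the plus strand of chromosome 16 (GRCm38). *Ifnar2* spans 91372783 to 91405589, *Il10rb* 91406164 to 91425834, *Ifnar1* 91485238 to 91507441 and *Ifngr2* 91547072 to 91565623, together 192.841 kb. They did not move as a block. In *KD1* the log2 fold changes along the cluster were 0.98, 1.09, 0.21 and 1.24, and in *KD2* they were 0.68, 0.59, -0.16 and 0.20. Of the 29 other tested genes within 2 Mb, 9 were higher and 4 lower in *KD1*, with a median of 0.15, and 6 were higher and 13 lower in *KD2*, with a median of -0.19. The shares over all genes tested were 26.9% higher and 30% lower in *KD1*, and 34% and 33.3% in *KD2*. The medians over chromosome 16 were 0.02 in *KD1* and -0.09 in *KD2*. In *KD2* against *KD1*, 2 of the 29 were higher and 14 lower, beside 34.8% and 33% of all genes tested. Their median was -0.30, and that of chromosome 16 was -0.16. The 4 chains, in the order of the cluster, were at -0.30, -0.51, -0.37 and -1.04 there. *Tmem50b*, the tested gene after *Ifngr2* and named here after its values were seen, was at 1.36 in *KD1* (adjusted p = 7.7e-10, edgeR) and 0.07 in *KD2* (adjusted p = 0.39, edgeR), so the neighbour rose in *KD1* by about as much as *Ifngr2*.

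**Figure D4:**
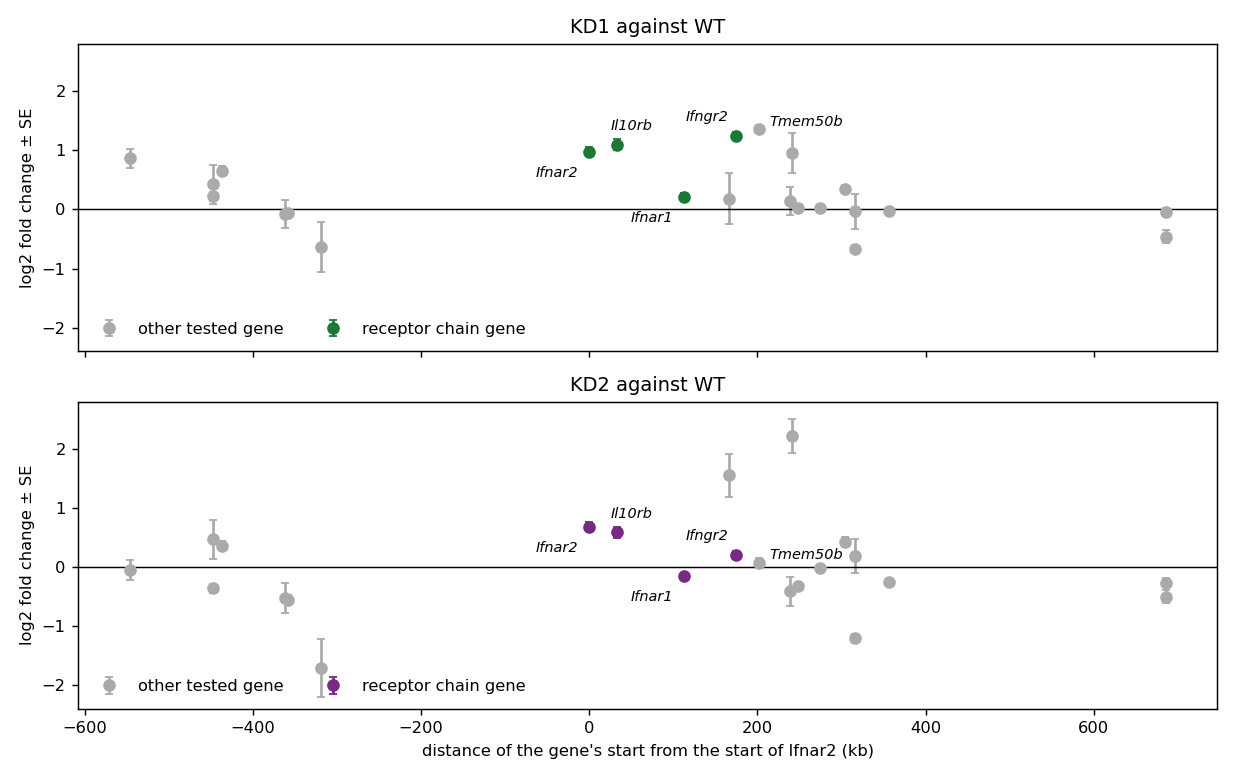
Log2 fold change with SE of the tested genes around the receptor cluster on chromosome 16, by distance in kb of each gene's start from that of *Ifnar2*, for *KD1* and *KD2* against *WT*; coloured points are the 4 receptor chains and grey points other genes. *Ifnar1* lies below the chains on either side of it in *KD1* (0.21 against 1.09 and 1.24) and in *KD2* (-0.16 against 0.59 and 0.20).

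The other members lie alone. *Ifngr1* is on chromosome 10, from 19591949 to 19610229 on the plus strand, and the 22 other genes tested within 2 Mb had medians of -0.08 in *KD1* and -0.28 in *KD2*. *Jak2* is on chromosome 19, from 29251828 to 29313080 on the plus strand, where 25 neighbours had medians of -0.17 and -0.15 while *Jak2* rose. *Tyk2* is on the minus strand of chromosome 9, from 21104068 to 21131243. Of its 66 neighbours 38 were lower in *KD1*, with a median of -0.42, beside 30% of all genes lower, while *Tyk2* was higher. In *KD2* 20 were higher and 24 lower, with a median of -0.07, beside 34% and 33.3% of all genes. In *KD2* against *KD1*, 38 were higher and 6 lower, with a median of 0.34, beside 34.8% and 33% of all genes. The median of chromosome 9 was 0.26 there, and *Tyk2* was at 0.49. *Jak1* is on the minus strand of chromosome 4, from 101152367 to 101265282, and its 18 neighbours had medians of 0.16 in *KD1* and 0.60 in *KD2*, the latter above the change of *Jak1* itself. *Ifnlr1* is on the plus strand of chromosome 4, from 135686287 to 135708181, with 58 neighbours at medians of 0.00 and 0.04.

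Overlapping genes bore most on 3 members. The read-through gene *Gm21970* overlaps exons of *Ifnar2* and *Il10rb* on their own strand, and 7.89% and 13.9% of their windows of 50 bases also occur elsewhere. *Gm21970* had 0 counts in all 9 cultures, which cannot show whether it is transcribed, since it shares exons with these members. The antisense gene *1700084C06Rik* overlaps 554 bases of *Tyk2* and had at most 3 counts in any culture. *Jak1* overlaps *Raver2* by 4 bases. *Ifnar1*, *Ifngr1* and *Ifngr2* shared 0.824%, 0.545% and 0.106% of their windows with other genes. Reads from these stretches cannot be assigned with certainty.

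Downstream, the ISGF3 subunits *Stat2* and *Irf9* rose in both lines. The lists of pathway genes used here were drawn up with earlier results of these data known. *Stat2*, whose product the type I receptor phosphorylates, had 161, 249 and 204 counts in *WT*, 478, 450 and 461 in *KD1* and 750, 867 and 573 in *KD2*. It rose by 0.93 in *KD1* (adjusted p = 5.3e-07, edgeR) and 1.63 in *KD2* (adjusted p = 1.3e-09, edgeR) on the log2 scale. *Irf9*, the DNA-binding subunit, rose by 0.32 in *KD1* (adjusted p = 0.0063, edgeR) and 0.56 in *KD2* (adjusted p = 4.9e-05, edgeR). With counts thinned to the smallest library, its rise in *KD1* missed the threshold (0.26, adjusted p = 0.066, edgeR). Both were higher in *KD2* than in *KD1*, by 0.70 and 0.25 (adjusted p at most 0.016, edgeR). That is the order of lines seen in *Tyk2*, and the reverse of that in *Ifngr2*, *Il10rb*, *Ifnar2* and *Jak2*.

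The genes that restrain the receptors and kinases rose in part. Over all genes tested, 26.9% were higher and 30% lower in *KD1*, and 34% and 33.3% in *KD2*. Of the 12 tested here, 6 were higher and 1 lower in *KD1* (median 0.33), and 7 were higher and 2 lower in *KD2* (median 0.47). The largest changes in *KD1* were those of *Socs3* (1.50) and *Cish* (1.21), feedback inhibitors of Janus kinase signalling that are induced by STAT3 and STAT5. In *KD2* they were those of *Usp18* (1.76), which displaces JAK1 from IFNAR2, and *Ptpn6* (1.32), a phosphatase (adjusted p at most 2.8e-07 for the 4, edgeR).

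Among the genes that lead to *Ifnb1* transcription, more rose than fell. The shares over all genes tested were 26.9% higher and 30% lower in *KD1*, and 34% and 33.3% in *KD2*. Of the 17 tested here, 11 were higher and 2 lower in *KD1* (median 0.24), and 9 were higher and 4 lower in *KD2* (median 0.17). *Ikbke*, a kinase that activates the interferon regulatory factors, rose by 3.44 in *KD1*, and *Tmem173*, the adaptor STING, by 2.84. In *KD2* the largest rises were those of *Irf7* (3.60) and *Ifih1* (2.70), the RNA sensor MDA5, both of which are themselves interferon response genes. The adjusted p was at most 5.8e-09 for *Ikbke*, *Tmem173* and *Ifih1* (edgeR). *Irf7*, counted among the higher genes here, had 11, 5 and 7 counts in *WT*. It passed the filter only through a *KD* line where it was high, so its direction is no evidence. *Mavs*, the adaptor of the RNA sensors and named after its values were seen, fell by 0.82 and 0.71 (adjusted p = 2.1e-07 and 7.6e-07, edgeR). Beside these, *Ifnb1* had 0 to 2 counts per culture.

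Other cytokine receptor chains that use the same kinases, with *Jak3*, gave no common direction. Among all genes tested, 26.9% were higher and 30% lower in *KD1*, and 34% and 33.3% in *KD2*. Of 14 tested of the 21 here, 6 were higher and 5 lower in *KD1* (median 0.23), and 5 were higher and 4 lower in *KD2* (median -0.10). *Prlr*, the prolactin receptor that signals through JAK2, was at 1.77 in *KD1*, and *Lifr*, which signals through JAK1, was at -3.09 (adjusted p at most 2.6e-08, edgeR). In *KD2* the largest changes among genes at 1 CPM or more in a group were those of *Il11ra1* (1.71) and *Jak3* (1.18), the Janus kinase of lymphoid receptors (adjusted p at most 4.6e-07, edgeR).

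The response genes were mostly higher in both lines. Of all genes tested, 26.9% were higher in *KD1* and 34% in *KD2*. Of the 29 ISGF3-type genes, 24 were higher and 0 lower in *KD1* (median log2 fold change 1.33, or 1.19 with the genes near 0 at their bound). All 29 were higher in *KD2* (median 2.39, also with the bounds). In *KD1* the largest rises were those of *Oasl1* (7.96) and *Rsad2* (6.86), both antiviral effectors. In *KD2* *Oas2* was at least 14.2-fold and *Oas3* at least 23.6-fold higher, against the floor of 3 counts per *WT* culture. Of 22 gamma-type genes tested, 18 were higher and 0 lower in *KD1* (median 2.01, or 1.71 with the genes near 0 at their bound). All 22 were higher in *KD2* (median 4.24, or 3.87 with the bounds). *Nos2*, the inducible nitric oxide synthase, was at 8.76 and the GTPase *Gbp3* at 4.11 in *KD1*. In *KD2* the GTPases *Gbp4* and *Tgtp1* were at least 104-fold and 15.0-fold higher. The genes named in *KD1* had 3 to 16 counts per *WT* culture, and those named in *KD2* at most 3, so no p-value is given for them. Of the tested genes, 4 ISGF3-type and 7 gamma-type genes had at most 3 counts in each *WT* culture, so they passed the filter only through a *KD* line where they were high, and their direction there is no evidence. Some further genes also passed only through a *KD* line, among them *Rsad2*, with 5, 7 and 3 counts in *WT*, *Oasl1*, *Nos2* and *Gbp3*. The same limit holds for them. Among genes with at least 10 counts in every *WT* culture, a limit set after seeing the data, 16 of 17 ISGF3-type genes were higher in *KD1* (median 0.91) and 17 in *KD2* (median 1.51), and 9 of 9 gamma-type genes were higher in each line (medians 1.88 and 1.91).

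Set side by side, *Ifngr2* and most gamma-type genes had opposite orders of the *KD* lines. In *KD2* against *KD1*, 17 of the 22 gamma-type genes were higher and 3 lower, with a median of 1.62. The type II chain *Ifngr2* was at -1.04, *Jak2* at -0.49 and *Ifngr1* at 0.42. Of the ISGF3-type genes 14 were higher and 8 lower there, with a median of 0.17. *Ifnar1* was at -0.37, *Ifnar2* at -0.30 and *Tyk2* at 0.49. Among all genes tested, 34.8% were higher and 33% lower. Some genes of both lists, such as *Tgtp1* and *Oas2*, were near 0 in *WT* and *KD1*. They passed the filter only through *KD2*, so their direction in *KD2* against *KD1* is no evidence. Among genes with at least 10 counts in every *WT* culture, 6 of 9 gamma-type genes were higher and 1 lower, with a median of 0.73. Of the 17 such ISGF3-type genes, 9 were higher and 3 lower, with a median of 0.17. All 3 receptor types and their kinases were present in *WT*, where 17 of the 29 ISGF3-type and 9 of the 27 gamma-type genes had at least 10 counts in every culture, and 4 and 11 had at most 3 in each. Receptor protein and phosphorylation were not measured in these data.

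**Figure D5:**
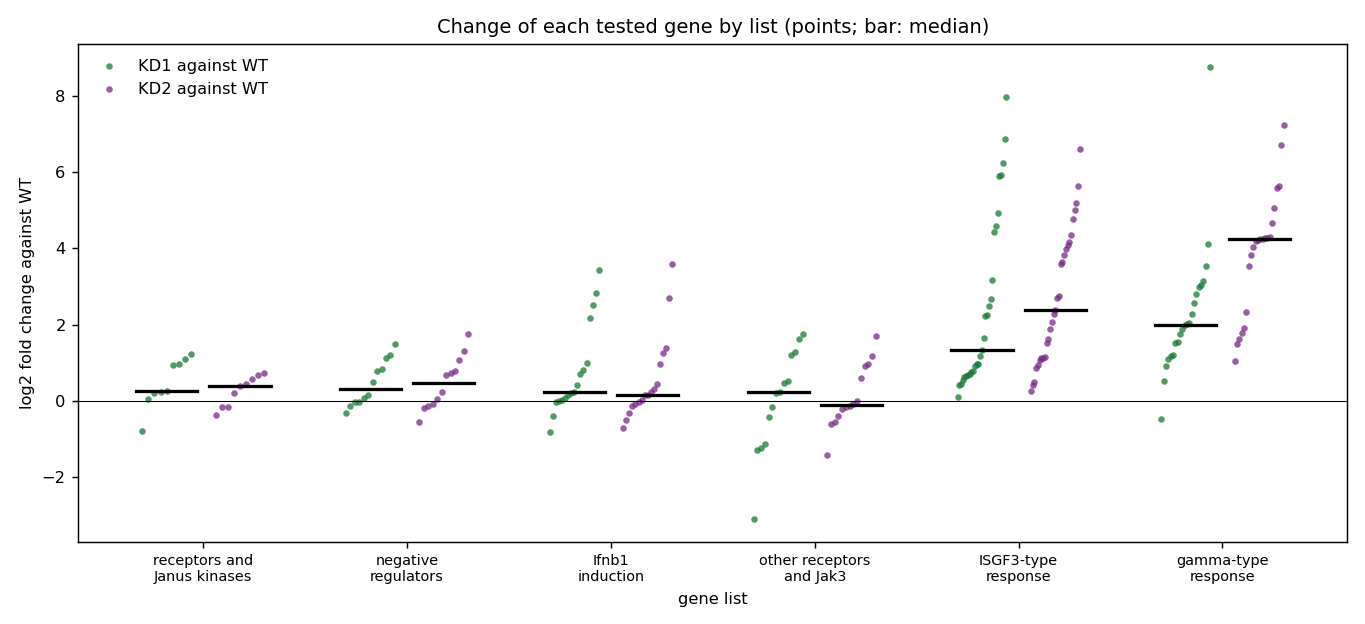
Log2 fold change against *WT* of each tested gene in 6 lists, for *KD1* and *KD2*; points are genes, the bar is the median, and points of genes near 0 in *WT* depend on the prior count. The medians of the receptors and kinases are 0.27 and 0.39, and those of the gamma-type response 2.01 and 4.24.

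The genes most like the called members over the 9 cultures were looked up by Pearson's r of log2 CPM, as a description in which the cultures of a line share their source. *Nppb*, *Dlgap5* and *Palld* were most like *Ifngr2* (r = 0.998 each), on chromosomes 4, 14 and 8. *Il13ra2*, *Ifi203* and *Insig2* were most like *Il10rb* (r from 0.993 to 0.995). None of them lies on chromosome 16.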

How the data were processed

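Polyadenylated RNA of 9 HC11 cultures was sequenced in 3 groups, taken with their numbers from the labels, and 0 columns were left without a culture. The deposited values are whole-number read counts per gene, not normalized by the authors. Per the labels and the methods of the study, reads were trimmed with fastp, mapped to GRCm38 with HISAT2 and counted over exons with featureCounts from Subread, and strand was not given in the sources used here. Labels and methods differ on whether lysates were flash frozen, and the labels call the lines knockouts.

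The counts were tested here with edgeR 4.0.16 in R 4.3.3, by the quasi-likelihood test with TMM scaling, the expression filter on 3 groups and 1 fit of all 9 cultures. Adjustment was by Benjamini-Hochberg over 15253 genes. A member was past the test at an adjusted p under 0.05, and called where the absolute log2 fold change was also above 1. CPM used TMM-adjusted library sizes. A fold against a group at or under 3 counts per culture is a lower bound. Positions and exon lengths came from GENCODE M21, another release than the study names, to which 53569 of 55228 gene names matched.

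Members and lists were chosen with earlier results of these data known. Named genes were all 10 members, the ISGF3 subunits, *Vangl2*, the 2 genes per list and line with the largest change among those past the test, at a mean of 1 CPM or more in a group and without overlap, and the 3 genes most correlated with each called member. The values of 1 gene are not reported here. Ratios of chains were added after seeing the data. Alternatives were DESeq2 1.42.0, other scalings and filters, thinned counts, only the 6 cultures compared, a replicate block and leaving out each culture. The test was checked on simulated data.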

Additional observations from a re-analysis of the deposited data

Results flagged for a closer look

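The change against *WT* differed between the *KD* lines for 7 of the 9 tested members, by the direct test of *KD2* against *KD1* (quasi-likelihood test of edgeR, adjusted by Benjamini-Hochberg). In 5 of them *KD2* was lower, namely *Ifngr2* (-1.04, adjusted p = 3.7e-09), *Il10rb* (-0.51, adjusted p = 1e-04), *Jak2* (-0.49, adjusted p = 6.4e-05), *Ifnar1* (-0.37, adjusted p = 4.9e-05) and *Ifnar2* (-0.30, adjusted p = 0.0023, and 0.051 with library size alone). *KD2* was higher in *Tyk2* (0.49, adjusted p = 2.2e-05) and *Ifngr1* (0.42, adjusted p = 3.4e-05). *Ifnar1* was above *WT* in *KD1* and below it in *KD2*. At this threshold 34.8% of all genes tested were higher in *KD2* and 33% lower. The other genes within 2 Mb had medians of -0.30 around the chromosome 16 cluster and 0.34 around *Tyk2*. Around *Jak2* and *Ifngr1* the medians were 0.05 and -0.12.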

How the results depend on the processing

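Of 153 values of member genes under the alternatives in each comparison, 151 in *KD1* against *WT*, 143 in *KD2* against *WT* and 149 in *KD2* against *KD1* kept their direction and their side of the threshold. The *Ifnlr1* change in *KD1*, which did not pass the test, turned to -0.029 with counts thinned to the smallest library, and over the cultures left out in turn it ranged from -0.011, without the 1st *WT* culture, to 0.13. *Ifnar1* in *KD2* no longer passed the test in 8 alternatives, and *Ifngr2* in *KD2* in 2 (0.17 without the filter, adjusted p = 0.078, edgeR). With library size alone, the median of all genes moved by 0.110 in *KD2* against *WT* and by 0.125 against *KD1*. *Ifnar2* then missed the threshold against *KD1* (-0.17, adjusted p = 0.051, edgeR) and *Jak1* passed it (0.25, adjusted p = 0.0039, edgeR), as *Jak1* did without the 3rd *KD2* culture (0.20, adjusted p = 0.00041, edgeR). *Ifnlr1* passed against *KD1* without the 1st *KD2* culture (-0.29, adjusted p = 0.032, edgeR). With thinned counts, 1 ISGF3 subunit passed in *KD1*, namely *Stat2* (0.97, adjusted p = 1.8e-06, edgeR). With at least 10 counts in every culture, 17 ISGF3-type genes passed in *KD2*, and 9 gamma-type genes passed in *KD1* and 9 in *KD2*, since fewer genes were tested. The members past the test numbered 8 in *KD1*, 7 to 8 in *KD2* and 7 to 8 in *KD2* against *KD1* as cultures were left out. The replicate block left 8 members past the test in each line and changed no call of a member, while 23 ISGF3-type genes passed in *KD1* in place of 24, and 12 genes of *Ifnb1* induction in *KD2* in place of 13. The numbers did not pair the cultures, with a mean correlation of 0.0012 between same-numbered deviations (-0.065 to 0.079). Depth limits the ligands: at or under 3 counts, no difference in *Ifnb1* was detectable. The causes of these shifts were not tested.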
